A study of Mus with 7 samples.

Results

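The genes described here are 10 genes of iron and heme handling, out of 31053 features counted in each library of macrophages grown from mouse fetal liver (FLMs). They were taken by symbol alone: Fth1, Ftl1, Hmox1, Blvrb, Slc48a1, Tfrc, Slc11a2, Slc11a1, Slc40a1 and Ireb2, and each symbol matched 1 feature. Macrophages recycle the iron of engulfed red cells: heme oxygenase opens the heme ring and frees the iron, which is then stored inside ferritin or leaves the cell through ferroportin. Iron also enters on transferrin, through the transferrin receptor. When iron is scarce, iron regulatory proteins bind ferritin and transferrin receptor transcripts, blocking translation of the first and stabilising the second, and the Hmox1 and ferritin genes are in addition known targets of the oxidative stress factor NRF2.

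FLMs are self-renewing cells kept in GM-CSF, here at 30 ng/mL in every condition, with a wild-type (wt) genotype and C57BL/6J mice as the source. The omega-3 fatty acid docosahexaenoic acid (DHA) was given to ask how it alters the response to lipopolysaccharide (LPS), a bacterial ligand of the receptor TLR4. Control cells (Con) were harvested untreated from medium with 10% fetal bovine serum (FBS). All other cells spent 24 h in 0.25% FBS with either 25 µM DHA carried on 8.3 µM bovine serum albumin (BSA) or that amount of BSA alone as vehicle (Veh). They were harvested at that point (DHA.LPS.0 and Veh.LPS.0) or after a change to medium with 20 ng/mL LPS for 1 h (DHA.LPS.1 and Veh.LPS.1) or 4 h (DHA.LPS.4 and Veh.LPS.4). Each of the 7 conditions is 1 single-cell library, with no replicate library to check a difference against, and no test was run. For Hmox1 without LPS, the paper reports that bulk quantitative PCR of samples treated in parallel also showed induction by DHA. Intervals are exact 95% intervals on counts of unique molecular identifiers (UMIs, 1 per captured RNA molecule) and cover counting error only. The line is grown in culture, and what its iron genes do in a liver was not measured.

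Cells were barcodes with more than 20000 UMIs, at least 2000 genes and under 20% of UMIs from mitochondrial genes, which left 692 to 3073 cells per library with a median of 29369 to 56239 UMIs. The mitochondrial limit removed unequal parts of the libraries: 29.0% of Con barcodes, 35.8% to 54.7% of Veh barcodes and 74.4% to 80.0% of DHA barcodes were at or over it. At most 4 barcodes were shared by any pair of libraries. The macrophage label held: all 9 macrophage markers were present in every library, with a summed level of 5817 to 7089 counts per 1000000 UMIs of the library (CPM), and every cell held at least 3 of them. The summed level of 10 erythroid markers was at most 0.771 CPM, with the beta globin genes Hbb-bs and Hbb-bt and with Slc4a1 at 0 throughout, and that of 6 hepatocyte markers at most 7.71 CPM, nearly all of it Afp, with Alb and Ttr at 0. The neutrophil list reached at most 7.53 CPM, the stromal list at most 0.0454 CPM and the mast cell list 0. No cell type that lacks the iron genes was present, so the shares of cells with a UMI given below have no free-RNA background beside them. The summed level of 8 cycling genes did differ between libraries: Con had 2572 CPM, the Veh series 1984, 1916 and 483 CPM from 0 to 4 h of LPS, and the DHA series 1445, 1272 and 721 CPM.

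Ferritin and Hmox1 stood well above vehicle in the DHA cells at every hour, Tfrc stood below vehicle at 0 h, and 4 h of LPS went with higher Tfrc, Slc11a2 and Slc11a1 in both arms. A gene was counted as different, by size alone, when its CPM ratio was above 1.5 or below 1/1.5 and 50% or more of the cells in one or the other library held its UMIs. Slc40a1 never met that share, so 9 of the 10 genes could be counted. Between DHA.LPS.0 and Veh.LPS.0, 5 of the 9 differed, where 1.58% of all 6276 genes did (0.892% higher and 0.685% lower): Fth1, Ftl1, Hmox1 and Slc48a1 were higher with DHA and Tfrc was lower. At 1 h, 3 of the 9 differed (Fth1, Ftl1 and Hmox1), against 2.55% of 5404 genes (1.07% higher and 1.48% lower). At 4 h, 4 of the 9 did (these and Slc48a1), against 3.71% of 5579 genes (1.4% higher and 2.31% lower). The median log2 ratio of the 9 genes was 0.53, 0.43 and 0.55 at 0, 1 and 4 h, beside -0.04, -0.05 and 0.06 over all genes counted. The genes were chosen with results of these libraries already known, and the 3 comparisons share no library, although each LPS library is used again below.

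**Figure D1:**
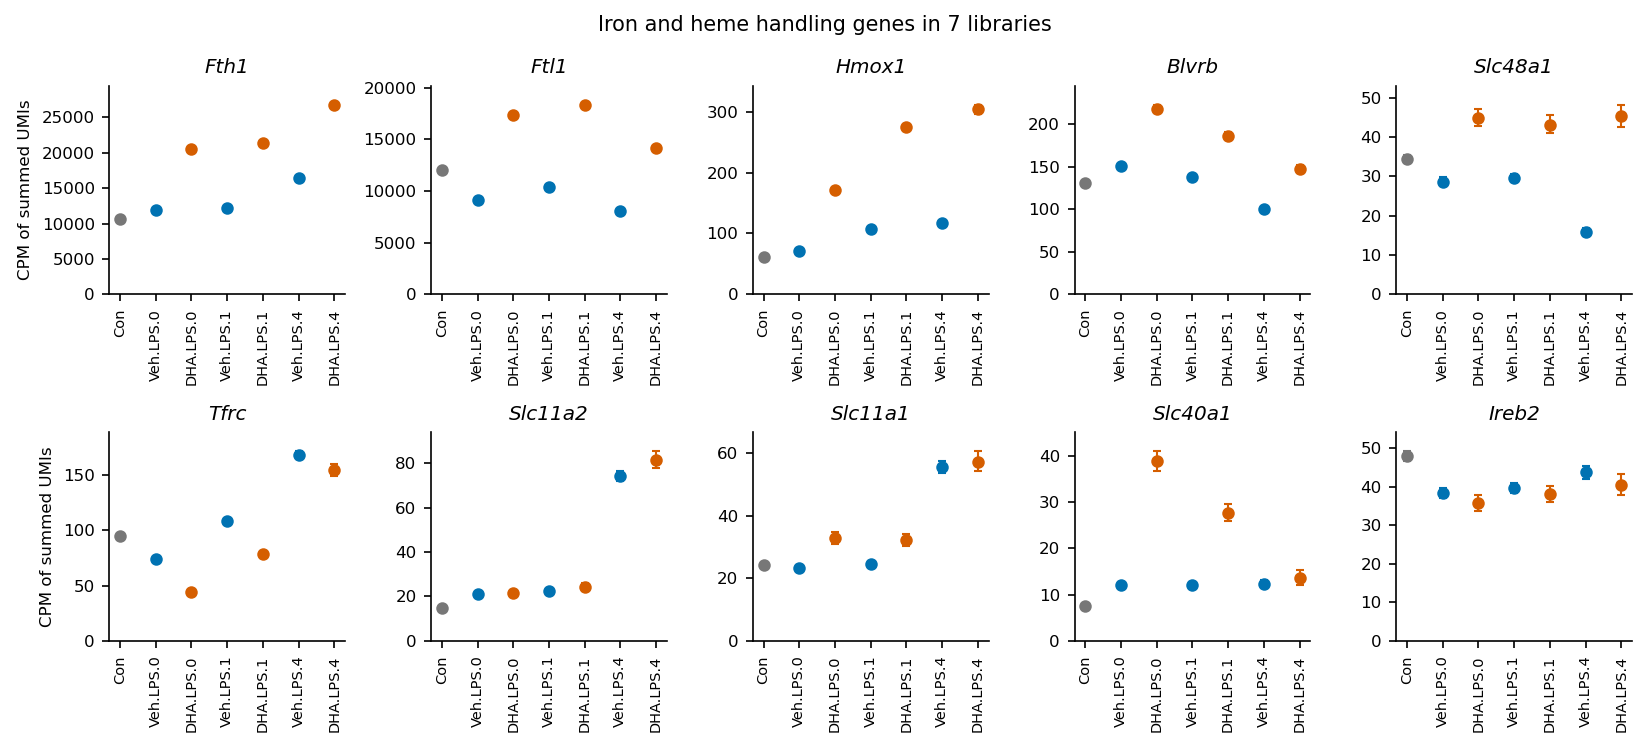
Level of each gene in the 7 libraries, in CPM of the UMIs summed over cells, with exact Poisson 95% intervals (counting error only, often smaller than the point). Grey is Con, blue Veh and orange DHA, 1 library each, and every axis starts at 0. Fth1, Ftl1, Hmox1 and Slc48a1 lie higher in all 3 DHA libraries than in any Veh library or Con, whereas Tfrc, Slc11a2 and Slc11a1 are highest in the libraries with 4 h of LPS.

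Fth1 encodes the heavy chain of ferritin, which oxidises iron for storage, and lies on chromosome 19 (ENSMUSG00000024661, mouse build GRCm38, 9980600 to 9985111). Con held 10659 CPM of it, the Veh libraries 11841, 12159 and 16453 CPM at 0, 1 and 4 h of LPS, and the DHA libraries 20554, 21366 and 26701 CPM. Every DHA library was above every other library, and within each arm the value at 4 h was the highest. In the 3 DHA libraries Fth1 had more UMIs than any other gene, whereas it ranked 5 in Con, Veh.LPS.0 and Veh.LPS.1 and 2 in Veh.LPS.4. The ratio of DHA to Veh was 1.74 at 0 h (interval 1.73 to 1.74), 1.76 at 1 h and 1.62 at 4 h, the last just under the 1.5-fold limit with TMM factors, another scaling of libraries, at 1.49.

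Ftl1, the light chain that helps iron to mineralise inside the ferritin shell, lies on chromosome 7 (ENSMUSG00000050708, 45457944 to 45459886). Con had 12025 CPM, the Veh series 9087, 10417 and 8029 CPM, and the DHA series 17376, 18284 and 14156 CPM. Again the 3 DHA libraries did not overlap with the others, but the value at 4 h was the lowest of each arm, unlike that of Fth1. DHA over Veh came to 1.91 at 0 h (1.91 to 1.92), 1.76 at 1 h and 1.76 at 4 h. Both chains together took 2.27% of all Con UMIs, 2.09%, 2.26% and 2.45% of those of the Veh libraries and 3.79%, 3.97% and 4.09% of those of the DHA libraries.

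The balance of the chains differed more between Con and 0 h and between 0 h and 4 h of LPS than between DHA and Veh. Con held 0.886 UMIs of Fth1 per UMI of Ftl1, the Veh libraries 1.30, 1.17 and 2.05, and the DHA libraries 1.18, 1.17 and 1.89. This ratio within a library does not depend on how libraries are scaled, and at 4 h it was above that of every other library in both arms. Levels of different genes were not set against each other per length, since the kit counts RNA molecules at their 3′ ends.

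Ftl1 has near-identical copies in the genome, and reads that match a copy can be assigned to either or be lost, so its level is uncertain. The files list 1 such feature with UMIs, the pseudogene Ftl1-ps1 on chromosome 13 (ENSMUSG00000062382, 74406397 to 74407325). Con held 56.6 CPM of it, the Veh libraries 42.9, 62.8 and 48.6 CPM, and the DHA libraries 109, 85.2 and 84.7 CPM, that is 0.466% to 0.625% of the UMIs of Ftl1. Adding it to Ftl1 raised the Ftl1 level by the same shares. No pseudogene of Fth1 is among the features.

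Hmox1, the inducible heme oxygenase that opens the heme ring, lies on chromosome 8 (ENSMUSG00000005413, 75093618 to 75100593). Con had 61.8 CPM, the Veh series 71.0, 108 and 118 CPM, and the DHA series 172, 275 and 304 CPM. Here too every DHA library was above all others, and within each arm the level was higher at 1 h and at 4 h than at 0 h. DHA exceeded Veh by a ratio of 2.42 at 0 h (2.34 to 2.51), 2.54 at 1 h (2.47 to 2.62) and 2.58 at 4 h (2.50 to 2.67). Counted from the highest ratio, Hmox1 was number 6 among 6276 genes before LPS, number 5 among 5404 after 1 h and number 5 among 5579 after 4 h. In cells thinned to 20000 UMIs each, Hmox1 was seen in 57.0% of Con cells, 63.8%, 70.1% and 65.5% of Veh cells and 77.8%, 88.9% and 86.0% of DHA cells, and unthinned shares ran from 78.0% to 96.1%.

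Blvrb, which encodes a biliverdin reductase, lies on chromosome 7 (ENSMUSG00000040466, 27447978 to 27465981). Con held 131 CPM of it, the Veh libraries 151, 138 and 100.2 CPM, and the DHA libraries 218, 186 and 147 CPM. Within each arm it was lower at each later hour, and the DHA library was above its Veh partner each time, although DHA.LPS.4 and Veh.LPS.0 had overlapping intervals. The ratio of DHA to Veh was 1.44, 1.35 and 1.47, under the 1.5-fold limit at all 3 hours.

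Slc48a1 (HRG1) carries heme out of the lysosome into the cytosol, and lies on chromosome 15 (ENSMUSG00000081534, 97784365 to 97792692). Con had 34.4 CPM, the Veh series 28.7, 29.6 and 15.9 CPM, and the DHA series 44.9, 43.2 and 45.3 CPM. The 3 DHA values lay together, with DHA.LPS.0 overlapping each of the other DHA libraries, and Veh.LPS.4 stood apart as the lowest of all. The ratio of DHA to Veh was thus 1.57 at 0 h (1.47 to 1.67), 1.46 at 1 h and 2.85 at 4 h (2.60 to 3.12), and at 4 h it ranked 4 of 5579 genes. At equal depth 25.8% of Veh.LPS.4 cells held a UMI of it and 49.4% of DHA.LPS.4 cells, where the unthinned shares, 48.5% and 62.6%, came from unequal depths.

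Tfrc, the receptor for iron-loaded transferrin, lies on chromosome 16 (ENSMUSG00000022797, 32608896 to 32632794). Con held 94.5 CPM of it, the Veh libraries 74.0, 109 and 168 CPM, and the DHA libraries 44.0, 78.2 and 155 CPM. Each later hour of LPS was higher in both arms, and DHA was below Veh at every hour, by less the longer the LPS. As a ratio of CPM, DHA over Veh was 0.595 at 0 h (0.563 to 0.628), 0.721 at 1 h and 0.919 at 4 h (0.884 to 0.955). At 0 h it ranked 19 of 6276 genes counted from the lowest ratio. At equal depth 51.0% of the DHA cells at 0 h held a Tfrc UMI and 65.7% of the Veh cells (71.3% and 80.3% unthinned), and 92.3% and 92.5% did at 4 h.

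Slc11a2 (DMT1), which moves ferrous iron out of endosomes, lies on chromosome 15 (ENSMUSG00000023030, 100387898 to 100424209). Con had 15.0 CPM, the Veh series 21.3, 22.3 and 74.3 CPM, and the DHA series 21.4, 24.2 and 81.5 CPM. The 4 h libraries stood far above the rest and Con below them, and at 0 h DHA and Veh had overlapping intervals. DHA over Veh gave 1.01 at 0 h (0.927 to 1.1), 1.09 at 1 h (1.00 to 1.18) and 1.1 at 4 h (1.04 to 1.16).

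Slc11a1 (NRAMP1), a metal transporter of the phagosome membrane, lies on chromosome 1 (ENSMUSG00000026177, 74375014 to 74386057). C57BL/6 mice carry a variant of it known as a loss of function, and its transcript alone was measured. Con held 24.2 CPM of it, the Veh libraries 23.2, 24.6 and 55.5 CPM, and the DHA libraries 32.8, 32.2 and 57.3 CPM. DHA was above Veh at 0 and 1 h, with ratios of 1.41 (1.32 to 1.52) and 1.31 (1.21 to 1.41), whereas at 4 h the ratio was 1.03 (0.967 to 1.1).

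Slc40a1 (ferroportin), the iron exporter, lies on chromosome 1 (ENSMUSG00000025993, 45908070 to 45926532). Con had 7.55 CPM, the Veh series 12.1, 12.1 and 12.3 CPM, and the DHA series 38.9, 27.8 and 13.7 CPM. The 3 Veh libraries had overlapping intervals, DHA.LPS.0 was the highest of all, and DHA.LPS.4 overlapped with Veh.LPS.4. The ratio of DHA to Veh was 3.21 at 0 h (2.97 to 3.48), 2.30 at 1 h (2.1 to 2.51) and 1.11 at 4 h (0.969 to 1.28). At equal depth a UMI of it was found in 26.2%, 23.7% and 13.3% of DHA cells and in 10.4%, 9.89% and 8.46% of Veh cells, and unthinned shares reached 38.8%.

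Ireb2 encodes the iron regulatory protein IRP2, which is controlled through protein degradation, and lies on chromosome 9 (ENSMUSG00000032293, 54862658 to 54912534). It varied least of the 10, with 47.9 CPM for Con, 38.4, 39.8 and 43.8 CPM for the Veh libraries and 35.7, 38.1 and 40.5 CPM for the DHA libraries. The highest library was 1.34 times the lowest, and all neighbours in the order of the 6 reduced-serum libraries had overlapping intervals. DHA over Veh gave 0.931 (0.873 to 0.993), 0.958 (0.897 to 1.02) and 0.924 (0.855 to 0.998).

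**Figure D2:**
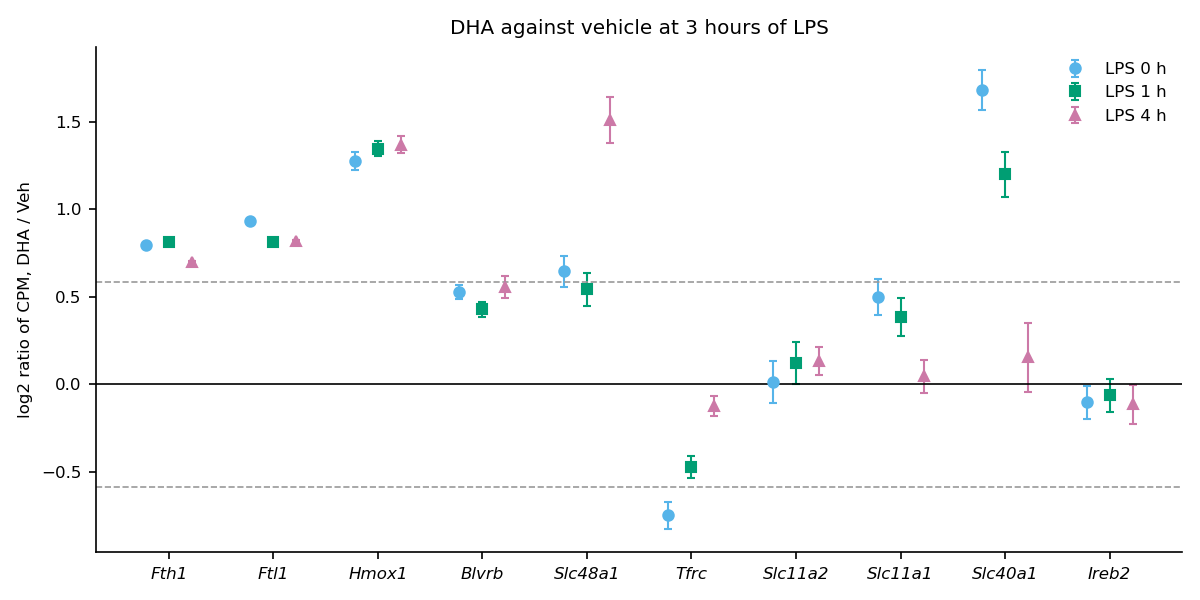
Log2 ratio of CPM, DHA over Veh, for each gene at 0, 1 and 4 h of LPS, with exact binomial 95% intervals (counting error only). Dashed lines mark 1.5-fold. Fth1, Ftl1 and Hmox1 keep nearly the same distance from 0 at the 3 hours, Slc48a1 is highest at 4 h, and Slc40a1, Slc11a1 and Tfrc come nearer to 0 at 4 h.

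How the DHA ratio itself differed between hours split the genes. From 0 to 4 h the log2 ratio of DHA to Veh was higher by 0.86 for Slc48a1 (interval 0.71 to 1.02) and by 0.63 for Tfrc (0.53 to 0.72). It was lower for Slc11a1, with a difference of -0.45 (-0.59 to -0.31), and for Slc40a1, with -1.53 (-1.75 to -1.31). For the other 6 genes the difference was small, from -0.12 to 0.12. Among them the counting interval left out 0 for Fth1, at -0.10 (-0.10 to -0.09), for Ftl1, at -0.12 (-0.13 to -0.11), and for Hmox1, at 0.09 (0.02 to 0.16), and held 0 for Blvrb, Slc11a2 and Ireb2. Each of these differences rests on 4 libraries with no replicate, and all are by library total. The intervals also leave out the sampling of cells, so nothing is read from a small difference whose interval leaves out 0. TMM factors add 0.01 to every log2 ratio of DHA to Veh at 0 h and -0.12 at 4 h, and size factors add 0.03 and -0.08. The small differences are thus of about the same size as the choice of scaling or smaller. That of Hmox1 does not keep its sign under either, whereas those of Fth1 and Ftl1 lie further below 0 under both.

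The DHA ratios depended on which barcodes were kept. With every deposited barcode and no filter, Hmox1 alone of the members passed 1.5-fold with a share of 50% at each hour, and its log2 ratio was 0.92, 0.97 and 0.97. Slc48a1 at 4 h, with a log2 ratio of 1.20, and Slc11a1 at 0 h, with 0.62, were past 1.5-fold but in too few barcodes to be counted. Of all genes counted, 7.81% of 3404, 13.5% of 2835 and 8.14% of 2876 then passed at 0, 1 and 4 h. Library totals then included the mitochondrial UMIs of the barcodes over the limit, and the median log2 ratio of all genes counted was -0.28, -0.32 and -0.21. Among kept cells it was -0.04, -0.05 and 0.06, so part of the lower ratios was shared by genes in general. With all barcodes the log2 ratio of Fth1 was 0.38, 0.38 and 0.29, and that of Ftl1 0.50, 0.35 and 0.39. Tfrc turned from lower to higher at 1 and 4 h, with -0.12, 0.20 and 0.53. Slc40a1 had 1.25, 0.76 and -0.15, turning from higher to lower at 4 h.

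Barcodes at or over the mitochondrial limit were then measured by themselves, as CPM of genes other than the mitochondrial ones. In each library they held 0.422 to 0.521 times the Fth1 level of kept cells and 0.399 to 0.518 times the Ftl1 level, but 2.78 to 4.95 times the Tfrc level, 1.85 to 2.67 times that of Slc11a2 and 2.01 to 3.24 times that of Slc11a1. They differed from kept cells in opposite directions for ferritin and for Tfrc, and they made up a larger part of the DHA libraries. Among these barcodes alone, DHA over Veh was 1.88, 1.64 and 1.82 for Fth1 at 0, 1 and 4 h, 1.85, 1.64 and 1.74 for Ftl1, and 1.83, 1.69 and 1.76 for Hmox1. It was 1.61, 1.42 and 2.88 for Slc48a1 and 0.590, 0.785 and 1.20 for Tfrc. For Slc40a1 it was 1.19, 1.09 and 0.903, and for Slc11a1 1.04, 1.03 and 0.973, so the higher level of these transporters with DHA at 0 h was seen in the kept cells and was not as large in the barcodes over the limit.

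Cycling differed between the arms, so the ratios were also taken among cells with like amounts of the 8 cycling genes (Mki67, Top2a, Birc5, Cdk1, Ccnb1, Ccna2, Ube2c and Cenpf), a split chosen after seeing the data. At 0 h, 54.0% of DHA cells and 34.4% of Veh cells had fewer than 10 cycling UMIs at equal depth. Among those, DHA over Veh was 1.75, 1.73 and 1.66 for Fth1 at 0, 1 and 4 h, 2.61, 2.33 and 2.75 for Hmox1, 0.617, 0.735 and 0.903 for Tfrc and 2.90, 2.04 and 1.24 for Slc40a1. Among cells with at least 30 cycling UMIs it was 1.51, 1.58 and 1.70 for Fth1, 1.61, 2.05 and 2.63 for Hmox1, 0.595, 0.743 and 0.876 for Tfrc and 3.49, 2.03 and 1.56 for Slc40a1. The direction was the same in both kinds of cell for Fth1, Hmox1 and Tfrc, and for Slc40a1 at 0 and 1 h. At 4 h Slc40a1 had 301 UMIs in all kept DHA cells and 719 in all kept Veh cells, with overlapping intervals of its level. Each kind of cell held only some of these UMIs, so no direction is read for it there. The Hmox1 ratio at 0 h was smaller in the cycling cells.

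**Figure D3:**
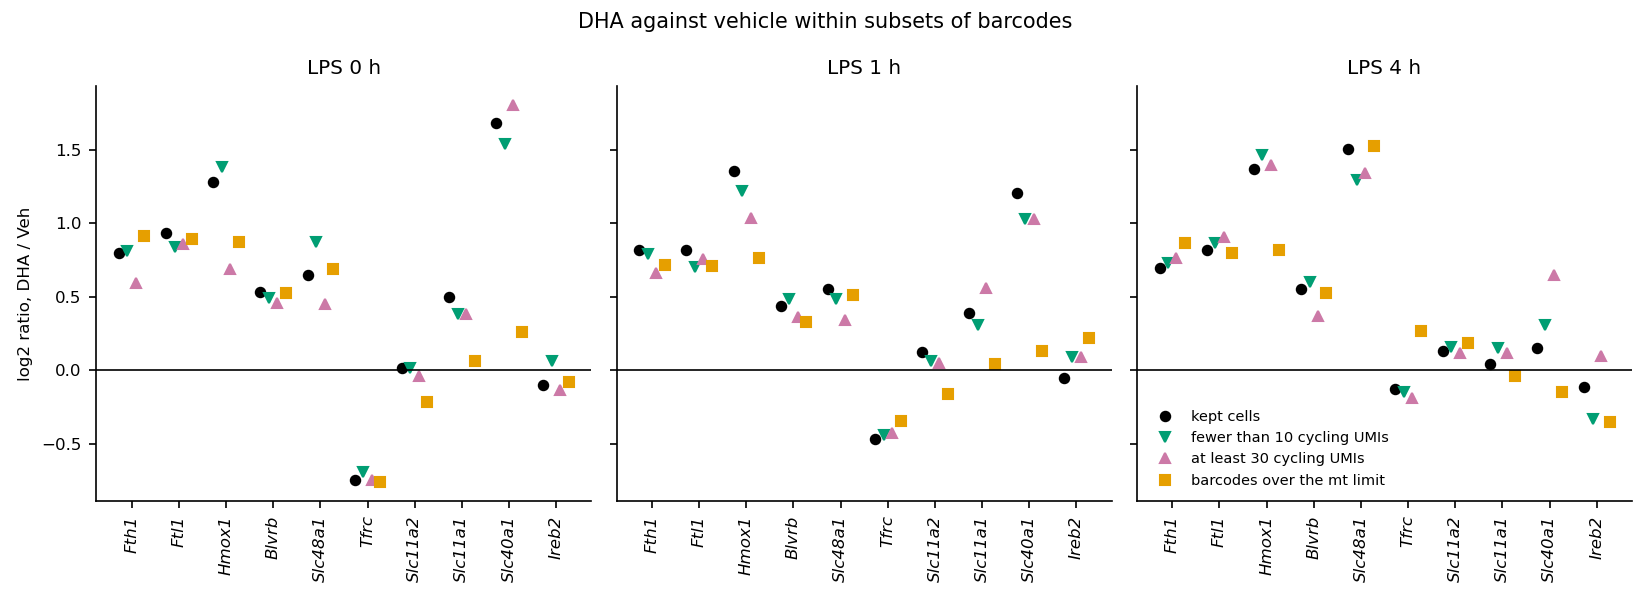
Log2 ratio of DHA over Veh for each gene at 0, 1 and 4 h of LPS within 4 sets of barcodes: all kept cells, kept cells with fewer than 10 or at least 30 UMIs of 8 cycling genes, and barcodes over the mitochondrial (mt) limit. Kept and over-limit values are CPM without mitochondrial genes, the other sets are means of cells thinned to 20000 UMIs. Fth1, Ftl1, Hmox1 and Slc48a1 lie above 0 in every set at every hour, and Slc40a1 is far lower over the mitochondrial limit than in kept cells at 0 and 1 h.

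LPS was followed within each arm, although the LPS libraries also had their medium replaced, and LPS and that change cannot be told apart. After 1 h, Hmox1 was the only one of 9 genes past the limits in Veh, with a ratio of 1.52 (1.47 to 1.57) to 0 h, where 6.46% of 5777 genes were (4.38% higher and 2.08% lower). Hmox1 and Tfrc passed in DHA, with 1.60 (1.54 to 1.65) and 1.78 (1.67 to 1.89), where 7.6% of 6315 genes did (4.88% higher and 2.72% lower), and Tfrc in Veh was just under the limit at 1.47. After 4 h, 6 of 9 genes passed in Veh, 4 higher and 2 lower, against 44% of 6297 genes (11.4% higher and 32.6% lower). In DHA 4 of 9 passed, all higher, against 39.2% of 6318 genes (9.89% higher and 29.3% lower). Both arms are set against their own 0 h library, which is also the partner in the comparisons with DHA.

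The genes past the limit after 4 h of LPS in both arms were Hmox1, Tfrc, Slc11a2 and Slc11a1. The ratio of 4 h to 0 h was 1.66 in Veh and 1.77 in DHA for Hmox1, 2.27 and 3.51 for Tfrc, 3.49 and 3.80 for Slc11a2 and 2.39 and 1.75 for Slc11a1. Among cells with at least 30 cycling UMIs, 83 in Veh.LPS.4 and 1100 in Veh.LPS.0, Hmox1 turned to 0.887 in Veh. Blvrb, at 0.663 in Veh and 0.675 in DHA, lay on either side of the limit. Slc48a1 was 0.554 (0.514 to 0.597) in Veh and 1.01 (0.931 to 1.09) in DHA, and Slc40a1 was 1.01 (0.922 to 1.11) in Veh and 0.351 (0.309 to 0.398) in DHA.

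Values at 4 h moved with the scaling of the libraries, and most of the genes past the limit by library total were lower there. The median log2 ratio of all genes counted was -0.28 in Veh and -0.24 in DHA by library total, 0.15 and 0.06 with TMM factors, and 0.17 and 0.10 with median-of-ratios size factors. Of the genes past the limit in Veh, 25.9% were higher by library total, 59.7% with TMM factors and 61.1% with size factors, and in DHA 25.2%, 53.2% and 57.4%. With TMM factors the log2 ratio was 1.62 in Veh and 2.11 in DHA for Tfrc, 2.24 and 2.23 for Slc11a2, 1.69 and 1.1 for Slc11a1 and 1.16 and 1.12 for Hmox1, and by library total these were 1.19 and 1.81, 1.80 and 1.93, 1.26 and 0.80, and 0.73 and 0.82 in the same order. Ftl1 turned with the scaling, from -0.18 to 0.25 in Veh and from -0.30 to 0.00 in DHA. Blvrb and Slc48a1 in Veh came inside the limit, at -0.16 and -0.42, while Fth1 and Ireb2 passed it at 0.91 and 0.62, and Fth1 passed it in DHA at 0.68. For Slc40a1 in DHA the log2 ratio was -1.51 by library total and -1.21 with TMM factors.

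**Figure D4:**
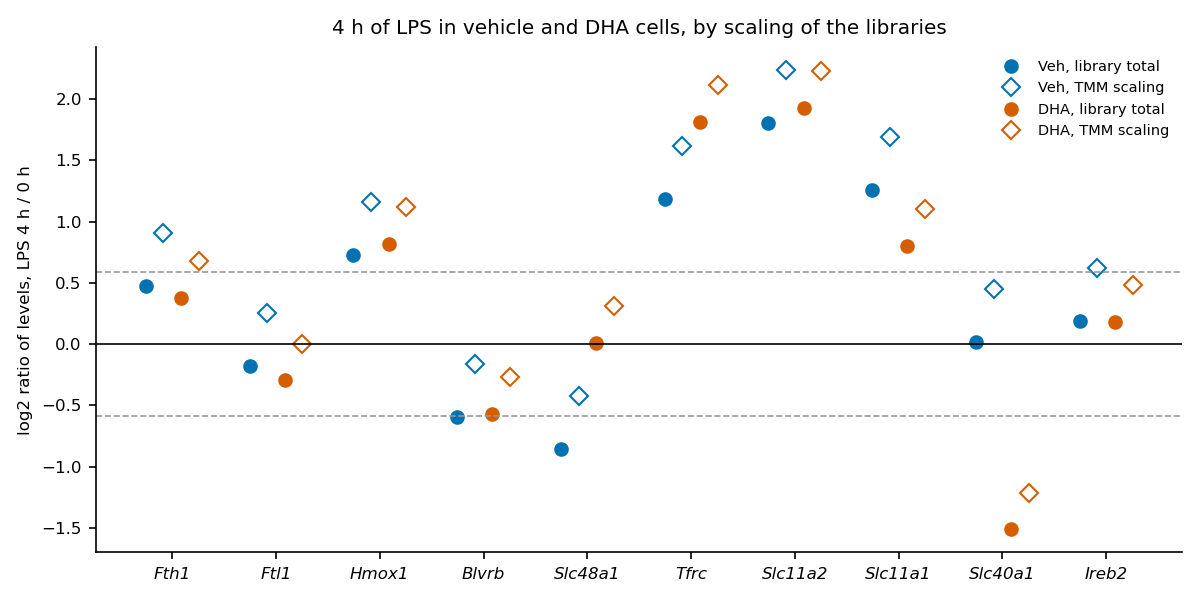
Log2 ratio of 4 h of LPS over 0 h for each gene in Veh (blue) and DHA (orange), with libraries scaled by their total (filled circles) or by TMM factors (open diamonds). Dashed lines mark 1.5-fold. Tfrc, Slc11a2, Slc11a1 and Hmox1 lie above the upper line under both scalings, Slc40a1 in DHA lies below the lower line under both, and Ftl1 in Veh changes sign with the scaling.

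The change from 10% to 0.25% FBS, 24 h and the BSA vehicle separate Veh.LPS.0 from Con together and cannot be told apart. None of the 9 genes passed the limits here, where 16.5% of 6168 genes did (7.59% higher and 8.92% lower). Slc40a1, in too few cells to be counted, had a ratio of 1.60 (1.47 to 1.75) but of 0.784 among cells with at least 30 cycling UMIs, Slc11a2 1.42 (1.33 to 1.51) and Hmox1 1.15 (1.11 to 1.19) but 0.875 among cells with fewer than 10 cycling UMIs. Ftl1 stood at 0.756, Tfrc at 0.783, Ireb2 at 0.800 and Slc48a1 at 0.834 of Con, and Fth1 at 1.11.

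Within a library the genes differed in how evenly they were spread over cells. The median cell, thinned to 20000 UMIs, held 198 Fth1 UMIs (Con), 199, 209 and 310 (Veh) or 349, 359 and 504.5 (DHA). The 5% of cells richest in a gene held 9.0% to 13.3% of the Fth1 UMIs of a library, 24.9% to 37.7% of the Hmox1 UMIs and 52.7% to 86.2% of the Slc40a1 UMIs. Ferritin was thus seen in all cells, and most detected Slc40a1 UMIs in few of them. Few counts alone raise such a share, and Slc40a1 had a mean of 0.150 to 0.804 thinned UMIs per cell. Slc48a1 in Veh.LPS.4, at a mean of 0.336, had 35.9% of its UMIs in the richest 5% of cells. Slc40a1 in DHA.LPS.4, at a mean of 0.295, had 69.6%.

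The higher ferritin level in DHA was a shift of many cells. In Veh.LPS.0, 5.0% of cells held more than 446 thinned Fth1 UMIs, the level of its 95th percentile. Above that level were 1.24% of Con cells, 5.99% and 12.1% of Veh cells at 1 and 4 h, and 30.1%, 33.1% and 70.7% of DHA cells at 0, 1 and 4 h. Above 338 Ftl1 UMIs, the same percentile, were 8.08% of Con cells, 4.96%, 7.91% and 5.44% of Veh cells and 38.8%, 45.2% and 27.6% of DHA cells. For Hmox1 the limit was 4 UMIs, exceeded by 2.68% of Con cells, 3.87%, 11.8% and 13.4% of Veh cells and 22.1%, 38.7% and 34.5% of DHA cells.

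**Figure D5:**
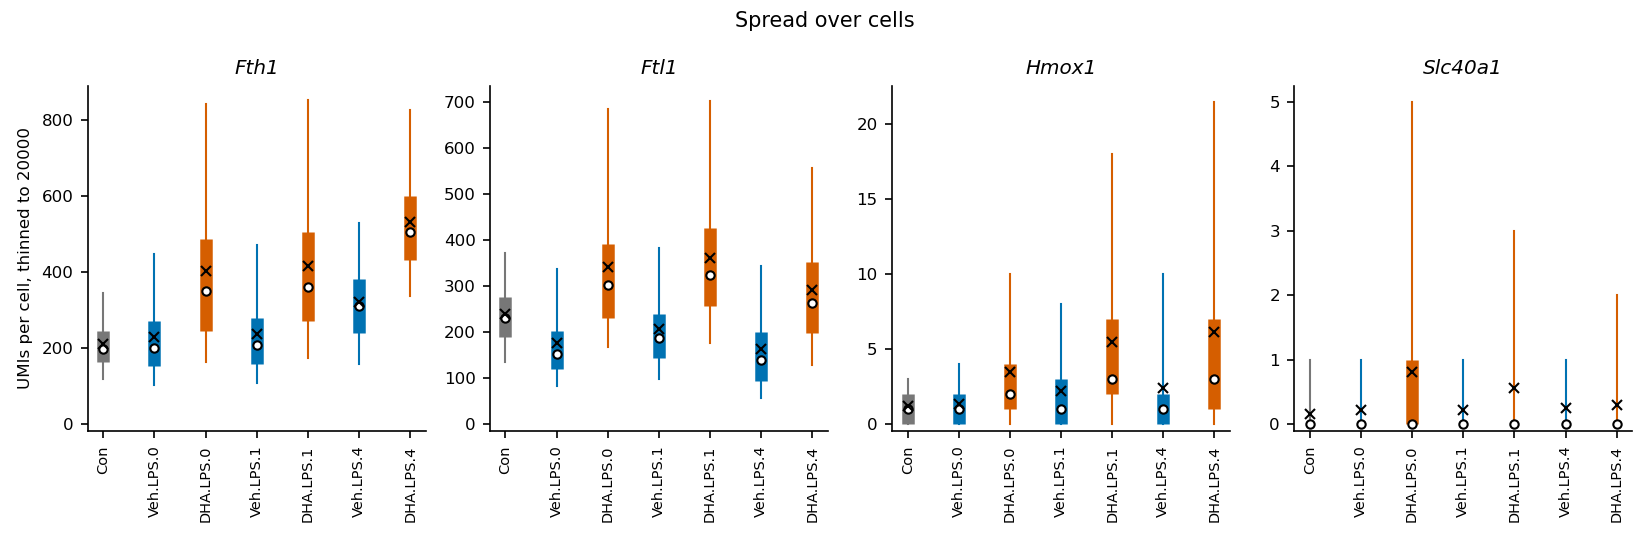
UMIs per cell of Fth1, Ftl1, Hmox1 and Slc40a1 in the 7 libraries, each cell thinned to 20000 UMIs. Boxes span the quartiles, white points are medians, crosses means and lines run from the 5th to the 95th percentile of cells. Median Fth1 is 349 to 504.5 UMIs in DHA and 199 to 310 in Veh, and the median of Slc40a1 is 0 in every library.

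Cells with at least 3 thinned UMIs of Slc40a1 were counted, a limit set after seeing the data. They made up 1.13% of Con cells, 2.14%, 2.34% and 3.32% of Veh cells and 9.03% (7.01 to 11.4), 6.79% (5.14 to 8.77) and 3.90% (2.59 to 5.63) of DHA cells, between 27 and 72 cells per library. In all 7 libraries these cells held more of the other heme and ferritin transcripts than cells with none: 1.33 to 2.21 times as much Fth1, 1.36 to 2.72 times as much Ftl1 and 3.03 to 5.87 times as much Hmox1. They also held 2.50 to 4.68 times as much Plin2, which coats lipid droplets, and fewer cycling UMIs, with a mean of 4.70 to 30.5 against 8.65 to 47.6. Lyz2, a general macrophage gene, was 0.733 to 1.40 times that of cells with none, the myeloid factor gene Spi1 0.766 to 1.01 times and the receptor gene Csf1r 0.406 to 2.19 times. Adgre1, which encodes the F4/80 antigen, was 0.437 to 0.790 times in 6 libraries and 1.20 times in Veh.LPS.4. Median depth was 28631 to 54372 UMIs against 29224 to 56016. Library by library, the cells with at least 3 UMIs were the deeper ones in Con and at 0 and 1 h in both arms. The widest gap was in Veh.LPS.0, with 45263 against 36415.5 UMIs, and at 4 h they were the shallower ones in both arms.

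Over cells at equal depth, Fth1 and Ftl1 had a Spearman correlation of 0.47 to 0.70 within a library, Fth1 and Hmox1 0.19 to 0.48 and Fth1 and Slc40a1 0.18 to 0.45. These are descriptions over 692 to 3073 cells that share a library, a depth and a culture. For Tfrc and Fth1 the value ran from -0.22 to 0.19, with no common sign, and all pairs of Ireb2 with other members lay between -0.11 and 0.11.

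Cells were also set out by cycling genes within each library. In the 25% of cells with the most cycling UMIs Hmox1 was 0.279 to 0.490 times its level in the 25% with the fewest. Slc40a1 was 0.139 to 0.617 times, Ftl1 0.563 to 0.843 times and Fth1 0.580 to 0.903 times, whereas Tfrc was 1.00 to 1.41 times. The Fth1 value was 0.879 in Con, 0.875 in Veh.LPS.4 and 0.903 in DHA.LPS.4. Ordered by Plin2 in the DHA libraries at 0, 1 and 4 h, the top 25% held 10.2, 9.83 and 9.07 times as much Slc40a1 as the bottom 25%, 4.29, 2.83 and 3.13 times as much Hmox1 and 2.49, 2.21 and 1.42 times as much Fth1. In Veh the top 25% held 3.39, 5.5 and 12.5 times as much Slc40a1 and 1.43, 1.5 and 1.27 times as much Fth1. In Con it held 1.93 times as much Slc40a1, 1.65 times as much Hmox1 and 1.11 times as much Fth1. At 4 h the bottom 25% held a mean of only 0.0484 thinned Slc40a1 UMIs in Veh (248 cells) and 0.0867 in DHA (173 cells). The Slc40a1 ratios there rest on few UMIs, and no trend over the hours is read from them. Hmox1, Slc40a1 and ferritin were thus each higher in cells with more Plin2 and in cells with fewer cycling transcripts, although Fth1 differed little in Con. These were separate orderings of the cells. Cell by cell, Hmox1 and Slc40a1 had a Spearman correlation of only 0.12 to 0.34 within a library.

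The rest of the pathway was read from 75 further genes in 6 lists, of which 41 were found in 50% or more of the cells in some library. At 0 h none passed the limits between DHA and Veh: 0 of 8 genes counted for iron uptake, trafficking and export, 0 of 4 for iron sensing, 0 of 6 for heme synthesis, 0 of 4 for heme breakdown and transport, 0 of 12 for iron-sulfur cluster assembly and 0 of 4 regulators of Hmox1. Of all genes counted 1.58% passed there, so counts of 0 lie near that share and nothing is read from them. At 1 h Por, the reductase that hands electrons to heme oxygenase, was higher at 77.7 CPM against 50.7 CPM. It was 1 of 4 genes counted for heme breakdown and transport, and no gene of the other lists passed. Those past the limits at 4 h were 1 of 8 for iron uptake, trafficking and export, 1 of 3 for iron sensing and 1 of 4 regulators of Hmox1. Of all genes counted 2.55% passed at 1 h and 3.71% at 4 h, and nothing is read about the lists from single genes. At 4 h Lcn2, a siderophore-binding protein, was higher, at 442 CPM against 284 CPM, whereas the RNA-binding protein gene Zfp36, at 70.6 against 119 CPM, and Mafk, at 13.7 against 22.3 CPM and a partner of NRF2 and BACH1 on DNA, were lower. With TMM factors Lcn2 came inside the limit at a ratio of 1.43, and with size factors at 1.48. At 0 h Lcn2 was at 27.7 CPM with DHA and 4.24 CPM with vehicle, in too few cells to be counted.

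After 4 h of LPS these lists had genes past the limit in both arms. For iron uptake, trafficking and export, Lcn2, Slc39a14 (a zinc and iron importer) and Slc25a37 (a mitochondrial iron importer) were higher and Slc25a28, Ncoa4 (the receptor for ferritin autophagy) and Cp were lower, 6 of 9 counted in each arm. Slc39a14 stood at 65.4 CPM in Veh and 78.7 CPM in DHA, from 25.8 and 23.0 CPM at 0 h, and Ncoa4 at 22.7 and 23.2 CPM, from 48.7 and 51.3 CPM. For heme synthesis 3 of 6 counted genes were lower in Veh and 4 of 6 in DHA. For iron-sulfur cluster assembly 7 of 12 were lower in Veh and 5 of 12 in DHA, with Hscb from 28.7 to 7.47 CPM and from 37.3 to 8.94 CPM. For heme breakdown and transport, Por was higher and Hmox2, the constitutive heme oxygenase, lower in both arms, at 34.5 CPM in Veh.LPS.4 from 77.1 CPM. For iron sensing, 3 of 4 genes passed in Veh, with Zfp36 higher and Aco1 and Fbxl5 lower, and 2 of 4 in DHA. Of the Hmox1 regulators, Keap1 and Bach1 were lower and Mafk higher in Veh, and Keap1 lower and Mafg higher in DHA. These counts are by library total, under which 32.6% of all genes counted were lower in Veh and 29.3% in DHA. TMM factors add 0.43 to every log2 ratio in Veh and 0.30 in DHA, with which 0 of the genes past the limit changed sign, but the lower genes of iron-sulfur cluster assembly were 2 of 12 in both arms and 2 others were higher, the lower genes of heme synthesis 3 of 6 in both arms, and Cp, Aco1, Fbxl5, Keap1 and Bach1 in Veh and Keap1 in DHA no longer passed. Pcbp1, an iron chaperone gene, and Alas1, which encodes the enzyme of the first step of heme synthesis, then passed as higher in both arms, and Mafg in Veh. With TMM factors, 1031 of all 6297 genes counted were lower in Veh and 1526 higher, and in DHA 1065 and 1212 of 6318. The 2 of 12 lower genes of iron-sulfur cluster assembly lie near those shares, and nothing is read from them.

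The genes whose log2 CPM over the 7 libraries was most like that of a member were found among 2891 genes that varied at least 2-fold. They were Ctsd (r = 0.986), Plin2 and Tcirg1 for Fth1, Ctsd (0.976), Slc6a8 and Plin2 for Hmox1, and Cat (0.913), Ftl1-ps1 and Psen2 for Ftl1. Those of Blvrb were Mgst3 (0.971), Cep170 and Tex264, those of Slc48a1 were Psap (0.932), Mgat4b and Cpt1a, and those of Tfrc were Ptpn7 (0.983), Pop7 and Fbxl15. For Slc11a2 they were Ercc1 (0.999), Spryd7 and Pik3cb, for Slc11a1 Sh3bgrl2 (0.979), Lasp1 and Nupr1, and for Slc40a1 Chchd10 (0.922), Ankrd37 and Igf2r. Ireb2 varied too little to be matched. The values are over 7 libraries that share arms and hours.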

How the data were processed

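The authors deposited, for each of 7 droplet libraries (10x Chromium 3′ kit, v3 chemistry), the UMI counts per gene and barcode called as a cell, without normalization or the later filter on cells. Per the file headers and the submitters' processing notes they were made with Cell Ranger 3.1.0, on mm10 (the same assembly as GRCm38). The paper's methods name another version. The filter of the paper's methods was applied here to UMIs (more than 20000 UMIs, at least 2000 genes, under 20% mitochondrial), which left totals of 22045775 to 125716982 UMIs. Raw counts were summed per library and scaled to CPM, with exact Poisson intervals for levels and exact binomial intervals for ratios and shares. For cell-level values each cell was thinned to 20000 UMIs with a fixed seed. No doublet caller was run, since 1 cell type was present, and leaving out the top 5% of cells by UMIs was an alternative. Calls used the limit on the share of cells and no floor on UMIs. Only in the alternative with no limit on the share did a gene, member or not, need at least 10 UMIs in both libraries. Cells were not tested as replicates. Gene positions came from a RefSeq table of GRCm38.p6, in which all 10 genes and Ftl1-ps1 matched.

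Every member is named, with the 3 genes most like it by Pearson r, and from 6 lists of pathway genes those past 1.5-fold between DHA and Veh or among the largest changes of other comparisons. The members, lists and limits were chosen with earlier results of these data known. Ratio and call scripts were tested on simulated data. Alternatives were TMM factors (edgeR, used for these only), median-of-ratios size factors, totals without mitochondrial genes, other filters on barcodes and genes, a 2-fold limit, a mean over cells and, added after seeing the data, cells with few or many cycling UMIs and totals without Fth1 and Ftl1. Software was Python 3.11.15 with numpy 2.4.6, pandas 2.3.3 and scipy 1.17.1, and R 4.3.3 with edgeR 4.0.16.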

Additional observations from a re-analysis of the deposited data

Results flagged for a closer look

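By library total, the ferritin pseudogene Ftl1-ps1 moved in opposite directions with LPS in the arms. Its log2 ratio of 1 h to 0 h of LPS was 0.55 in Veh and -0.35 in DHA, and that of 4 h to 0 h was 0.18 in Veh and -0.36 in DHA, each with an interval for counting error that leaves out 0. The difference was not tested, since each condition is 1 library. In DHA, TMM factors add 0.30 and size factors 0.34 to every log2 ratio of 4 h to 0 h. These shifts are nearly as large as the 4 h value of Ftl1-ps1 in DHA, but smaller. It stayed below 0 there under both, but so close to 0 that its direction at 4 h in DHA is read by library total only. At 1 h in DHA, TMM factors add 0.11 and size factors 0.12. Against Ftl1 in the same library, Ftl1-ps1 held 0.625%, 0.466% and 0.599% of the UMIs of Ftl1 at 0, 1 and 4 h in DHA, and 0.472%, 0.603% and 0.606% in Veh.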

How the results depend on the processing

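No paired analysis was possible because each condition is 1 library and the labels carry no replicate numbers, and for the same reason no replicate could be left out. Of 88 counts of the 10 genes past the limits under alternatives, 75 stayed within 1.5 times. This compares the size of a count, not which genes it held or their direction. For 4 h of LPS in Veh, TMM factors took out Blvrb and Slc48a1, both lower, and brought in Fth1 and Ireb2, both higher. With all barcodes the counts for DHA against Veh were 1 at 0 h, 1 at 1 h and 1 at 4 h (Hmox1 each time) in place of 5, 3 and 4, while the share of all genes past the limits went from 1.58%, 2.55% and 3.71% to 7.81%, 13.5% and 8.14%. Slc48a1 at 4 h was past 1.5-fold there, at a log2 ratio of 1.20, but in too few barcodes to be counted. The median log2 ratio of all genes counted went from -0.04, -0.05 and 0.06 to -0.28, -0.32 and -0.21. With a 2-fold limit the counts for DHA against Veh were 1, 1 and 2. Of all genes counted, 0.319%, 0.426% and 0.932% passed it at 0, 1 and 4 h. The 2-fold counts for LPS were 0 (Veh, 1 h), 3 (Veh, 4 h), 0 (DHA, 1 h) and 2 (DHA, 4 h) in place of 1, 6, 2 and 4. Of all genes counted, 2.99%, 23%, 3.1% and 18.4% passed in the same order. With TMM factors, and with median-of-ratios size factors, Tfrc joined Hmox1 for 1 h of LPS in Veh, giving 2. Of all genes counted, 6.79% and 7.2% passed there. With no limit on the share of cells, Slc40a1 made 1 gene for Veh.LPS.0 against Con in place of 0, where 24.5% of 12157 genes passed. Among log2 ratios past 1.5-fold, 2 changed sign, both among cells with at least 30 cycling UMIs, an alternative added after seeing the data: Hmox1 at 4 h of LPS in Veh, from 0.73 to -0.17 (83 and 1100 cells), and Slc40a1 in Veh.LPS.0 against Con, from 0.68 to -0.35. Including values inside the limit, 42 of 880 changed sign, 14 of them where the interval by library total left out 0, such as Tfrc for DHA against Veh with all barcodes, from -0.47 to 0.20 at 1 h and from -0.12 to 0.53 at 4 h, and Ftl1 at 4 h of LPS in Veh with TMM factors, from -0.18 to 0.25. Of these log2 ratios, 564 moved by less than their counting interval and 314 by more. Of genes past the limit, those higher with DHA at 4 h made up 37.7% by library total, 19.2% with TMM factors and 23.6% with size factors. After 1 h of LPS the share was 67.8% in Veh and 64.2% in DHA by total, 77.3% and 78.1% with TMM factors, and 80.0% and 79.7% with size factors. Slc11a1 in DHA.LPS.4 against Veh.LPS.4 had a log2 ratio of 0.05 by total and -0.08 with TMM factors. Adding Ftl1-ps1 to Ftl1 changed no direction, and for Fth1 it could not be run, as no pseudogene of Fth1 is among the features. Counts at this depth give narrow intervals for ferritin and wide ones for Slc40a1, Slc11a2 and Ireb2, and the spread between cultures was not measured.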
